A study of Homo sapiens with 16 samples.

Results

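The genes described here encode the proteins of the cytoplasmic ribosome in HCT116, an established cell line from a human colorectal carcinoma. They were chosen by symbol: names of the RPL and RPS series, with RPLP0, RPLP1, RPLP2 and RPSA, leaving out RPS27L, pseudogenes and symbols with a Y. The rule found 83 genes, 31 of the small and 52 of the large ribosomal subunit, among 28502 listed symbols. RNA was measured by poly(A) sequencing after transfection with small interfering RNA (siRNA) against EZH1 (siEZH1) or UXT (siUXT) or with a control labelled NC, followed by tumour necrosis factor (TNF) or phosphate-buffered saline (PBS). EZH1 encodes a histone H3 lysine 27 methyltransferase, and UXT a small prefoldin-like protein. The 6 conditions were siEZH1 with TNF, siEZH1 with PBS, siUXT with TNF, siUXT with PBS, NC with TNF and NC with PBS, with 1 library each. All 6 share the cell line. The sources used here do not give the dose and duration of TNF or what NC stands for, and 10 chromatin samples of the series were not analysed here.

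A ribosome is built from ribosomal RNA and one copy of most ribosomal proteins, so growing cells make these proteins in roughly equal amounts. The large subunit joins amino acids and the small subunit reads the mRNA. Most of their mRNAs begin with a C followed by an unbroken run of pyrimidines, the terminal oligopyrimidine tract, through which mTOR signalling and the RNA-binding protein LARP1 control their translation. Some ribosomal proteins also act outside the ribosome, and several are mutated in Diamond-Blackfan anaemia, a failure of red cell production.

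The start sites of the genes on which the results below turn carried this tract in most cases. Each sequence runs 5′ to 3′ on the coding strand from 10 bases before the annotated start to 20 bases from it, in RefSeq on GRCh38.p14, and capitals mark the pyrimidine run that begins with C at the start. Where the base at the start is no C, or the run has under 5 bases, nothing is in capitals. For RPL11, with 2 annotated starts, the one with the longer run is shown. RPLP0 is shown beside RPLP1 and RPLP2 because the 3 form 1 structure and differed in level, and RPL22 is shown beside its paralog RPL22L1 for the same reason.
RPLP1 (chr15:69452808-69452837, plus strand): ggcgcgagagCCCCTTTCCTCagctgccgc
RPLP2 (chr11:809957-809986, plus strand): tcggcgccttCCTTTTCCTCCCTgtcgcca
RPLP0 (chr12:120201092-120201121, minus strand): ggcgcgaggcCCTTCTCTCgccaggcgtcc
RPS28 (chr19:8321486-8321515, plus strand): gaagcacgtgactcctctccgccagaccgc
RPL11 (chr1:23691796-23691825, plus strand): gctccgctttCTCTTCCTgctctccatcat
RPL39 (chrX:119791611-119791640, minus strand): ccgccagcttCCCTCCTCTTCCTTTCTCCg
RPL21 (chr13:27251548-27251577, plus strand): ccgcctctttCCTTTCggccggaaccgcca
RPL22 (chr1:6199576-6199605, minus strand): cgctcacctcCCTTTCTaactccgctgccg
RPL22L1 (chr3:170870176-170870205, minus strand): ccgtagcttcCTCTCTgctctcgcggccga

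The run is 19 bases long in RPL39, 13 in RPLP2, 11 in RPLP1, 9 in RPLP0, 8 in RPL11, 7 in RPL22 and 6 in both RPL21 and RPL22L1. The annotated start of RPS28 is not a C. Of 78 ribosomal protein genes with a mean of at least 1 FPKM, 64 matched a RefSeq promoter entry. A start of C followed by at least 4 bases of C or T was annotated in 46 of these 64 genes (71.9%), against 988 of 15842 protein-coding genes with an entry (6.24%). The motif CCGGAAG was found for 34.4% of the 64 ribosomal protein genes, against 16.5% of the 15842 protein-coding genes. Windows of 300 bases (250 before the start and 50 from it) were read on both strands. A gene was counted where the window of any of its annotated starts held the motif. GCCAT was found for 57.8% and 44.3%, GGGCGG for 57.8% and 64.3%, and TATAAA for 9.38% and 12.4% of these genes. A match is a description of the letters, and the motifs were searched with overlaps between them allowed.

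The targeted genes were read first, as a check of the labels. UXT stood at 24.6 FPKM (siUXT, TNF) and 27.7 FPKM (siUXT, PBS), against 59.6 FPKM (NC, TNF) and 62.2 FPKM (NC, PBS). It was at 77.1 and 64.9 FPKM in siEZH1 with TNF and PBS. EZH1 stood at 4.14 and 4.05 FPKM in siEZH1 with TNF and PBS, and at 6.23 and 6.27 FPKM in siUXT, against 5.12 and 5.45 FPKM in NC with TNF and PBS, so both siEZH1 libraries lay below both NC libraries by less than for UXT. Neither passed the additive limma test described below (UXT in siUXT -1.19 on the log2 scale, adjusted p = 0.689; EZH1 in siEZH1 -0.30, adjusted p = 0.643). FPKM is the number of sequenced fragments scaled by transcript length and by library size, and with merged symbols counted once it summed to between 489992 and 518399 per library. Depth is not given; relative to NC PBS it was 0.719 in siEZH1 TNF and 0.718 in NC TNF, and between 0.949 and 1.02 in the others. Of the 4 knockdown libraries, siUXT PBS differed from its NC library at the most loci: 28.0% of the 11845 loci tested were at least 1.2-fold higher than in NC PBS and 29.4% at least 1.2-fold lower. These shares were 25.3% and 23.6% for siEZH1 TNF, 18.8% and 22.4% for siEZH1 PBS, and 19.4% and 18.2% for siUXT TNF. Of 16 markers of other cell types, 1 or 2 reached 1 FPKM in a library, and the sum of the 16 lay between 7.38 and 11.2 FPKM. Those that reached it were COL1A1 (5.04 to 8.26 FPKM) and CD68 (0.748 to 2.52 FPKM). PTPRC, CD3E and DCN were listed at 0 in all 6 libraries. Of 12 markers of colon epithelium, 7 or 8 reached 1 FPKM, with VIL1 at 0.0905 FPKM or listed at 0. EPCAM, an epithelial adhesion protein, was lowest in siUXT PBS at 58.7 FPKM, against 102 to 154 FPKM in the other libraries.

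Ribosomal protein mRNAs were among the most abundant in every library. Of the FPKM summed over loci, they held 18.9% in siEZH1 TNF, 19.3% in siEZH1 PBS, 18.2% in siUXT TNF, 19.5% in siUXT PBS, 18.4% in NC TNF and 18.9% in NC PBS. The share thus lay within a narrow range in the 6 libraries. Of the 20 loci with the highest mean FPKM, 9 were ribosomal protein genes, and of the 100 highest, 56 were. The summed FPKM of small subunit genes over that of large subunit genes was 0.788 and 0.764 in siEZH1 with TNF and PBS, 0.766 and 0.792 in siUXT, and 0.795 and 0.788 in NC.

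Per length, the members were unequal. RPS2, a protein of the mRNA entry channel, had the highest mean at 4664 FPKM, followed by RPL41, the smallest ribosomal protein, at 3806, the stalk protein RPLP0 at 2888, RPS12 at 2652 and the stalk protein RPLP1 at 2549. RPL41 lay between 3516 and 4165 FPKM over the 6 libraries, within reach of RPS2 (3919 to 5461 FPKM) and above RPLP0 (2635 to 3399 FPKM). The ranges of RPLP0, RPS12 (2385 to 2917 FPKM) and RPLP1 (1636 to 3352 FPKM) overlapped. At the low end stood RPS23 at 173 FPKM, RPL27A at 158, and the paralogs RPL22L1 at 71.8, RPL7L1 at 71.4 and RPL26L1 at 51.8 FPKM. In all, 75 of the 78 had a mean over 100 FPKM.

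The remaining 5 of the 83 did not reach a mean of 1 FPKM. RPL10L and RPL39L, paralogs of RPL10 and RPL39 best known from testis, were listed at 0 throughout. RPL3L, the paralog of RPL3 known from striated muscle, was listed at 0 in 5 libraries and at 0.168 FPKM in siEZH1 PBS. RPS17L was at most 0.530 FPKM. RPS18, a core protein of the small subunit, was listed at 0.313 FPKM in siUXT PBS and at 0 in the other 5 libraries; a value of 0 can be a failed estimate. Of the tested members, 14 shared all 6 values with another symbol, 4 of them with another protein-coding one (RPL13A with FLT3LG, RPL17 with C18orf32, RPL36A with HNRNPH2, RPS10 with NUDT3), so these values cannot be given to 1 gene. Ribosomal protein genes have many processed pseudogenes, and the files list 28 such symbols, with 20 above 0, at most 8.58 FPKM each. The sources used here do not say how reads shared with pseudogenes were assigned.

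**Figure D1:**
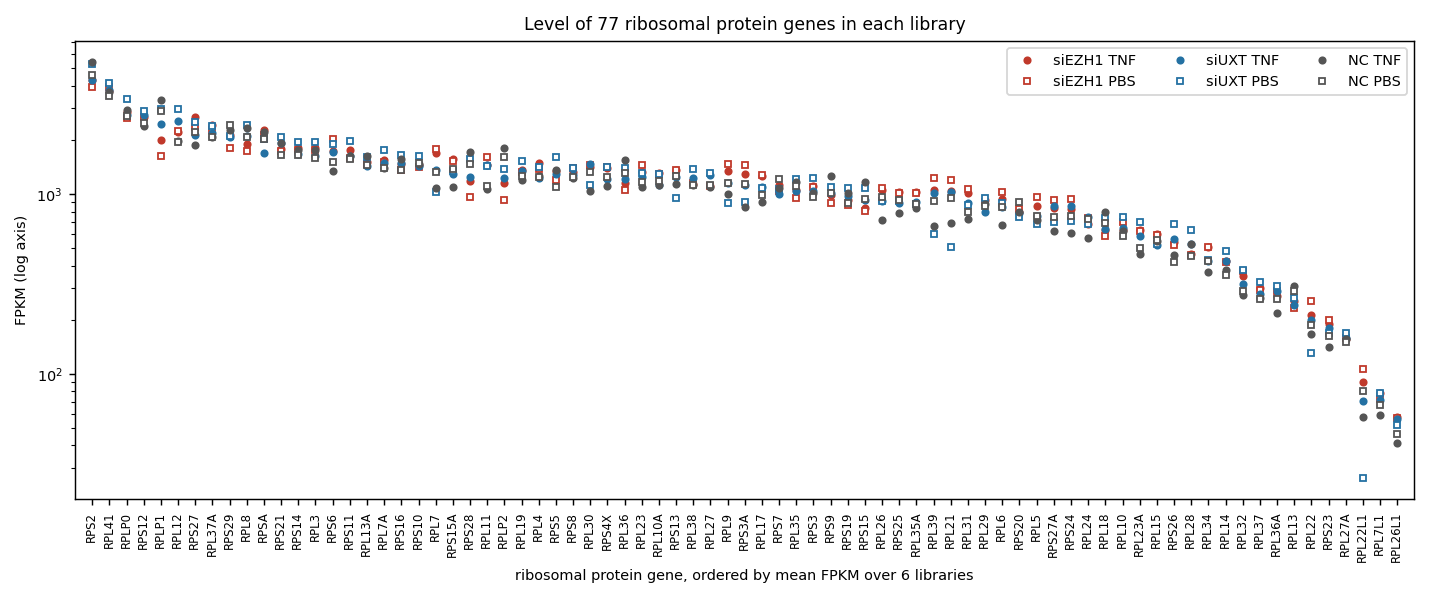
FPKM (log axis) of 77 of the 78 ribosomal protein genes with a mean of at least 1 FPKM, ordered by their mean over the 6 libraries, with 1 symbol per library. RPS2 leads at a mean of 4664 FPKM, RPL26L1 is lowest at 51.8 FPKM, and RPL22L1 in siUXT PBS is the lowest single point at 26.3 FPKM.

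Members varied to different degrees between libraries. The ratio of the highest to the lowest library was 1.12 for RPL27A, which had the smallest coefficient of variation (3.71%). It was 1.16 for RPS10, also at the steady end, 1.47 for RPL31, 1.49 for RPL11 and 1.52 for RPL12. RPL22L1 had the widest range at 4.06-fold, then RPL21 at 2.36, RPL39 at 2.05, RPLP1 at 2.05, RPL22 at 1.94, RPLP2 at 1.94 and RPS28 at 1.79. With 1 library per condition, no condition has a spread of its own. The test used limma with transfection and treatment as additive terms over 6 libraries, so that the difference of an effect between treatments or transfections serves as the error, with Benjamini-Hochberg adjustment over 11845 loci. Single pairs of libraries are given as values without a test. Log2 changes are on the log2(FPKM + 1) scale.

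The siEZH1 comparison asked how the mRNAs differed after transfection against EZH1. Ribosomal protein genes were split: 54 of 78 were higher in siEZH1 than in NC under both treatments (69.2%, against 40.7% of all loci), and 18 were lower under both (23.1%, against 37.7%). The proteins of the ribosomal stalk, RPLP1 and RPLP2, were lowest relative to NC, and RPL7, RPL39, RPL22L1, RPL11, RPS3A and RPL21 highest. The median log2 change of the 78 genes was 0.17 under TNF and 0.12 under PBS, against 0.02 and 0.00 over all loci. None of these differences passed the test over the 6 libraries: limma called 0 of 78 members at an adjusted p of 0.05, with 2 of 11845 loci called in all (0.0169%). At an unadjusted p under 0.05 it had 17 members (21.8%) and 972 loci (8.21%), and no other tool was run. With eBayes without trend, limma had 6 members (7.69%) and 926 loci (7.82%) at this p, so the excess of members depended on the moderation. The lowest adjusted p of a member was 0.602 with trend.

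By size, 20 of 78 members were at least 1.2-fold higher in siEZH1 under both treatments (25.6%), where the share over all loci was 12.0%. At least 1.2-fold lower under both were 6 members, among them RPLP1, RPLP2, RPS28, RPL36 and RPL13 (7.69%), where the share over all loci was 14.8%. The fold of 1.2 was chosen after the data were seen. Without the siUXT PBS library, where the siEZH1 and NC pairs decide the error, limma called 26 members higher (33.3%, against 11.8% of loci) and 11 lower (14.1%, against 14.7% of loci). Without siUXT TNF the calls were 28 higher (11.3% of loci) and 11 lower (14.8% of loci), and without both they were 26 higher (11.6% of loci) and 11 lower (14.6% of loci). The call on a member in this comparison therefore depended on the siUXT libraries, while its log2 change was the same with and without them.

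The stalk is the flexible arm of the large subunit that recruits the elongation factors; RPLP0 is its base, and pairs of RPLP1 and RPLP2 are bound to it. RPLP1 had 2011 and 1636 FPKM in siEZH1 with TNF and PBS, 2446 and 2957 FPKM in siUXT with TNF and PBS, and 3352 and 2890 FPKM in NC with TNF and PBS. Both siEZH1 libraries lay below all others, with a log2 change of -0.74 under TNF and -0.82 under PBS. The limma estimate was -0.78 (SE 0.16, adjusted p = 0.602; 0.00646 without siUXT PBS).

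RPLP2 had 1151 and 929 FPKM in siEZH1 with TNF and PBS, 1222 and 1373 FPKM in siUXT, and 1801 and 1605 FPKM in NC, each with TNF first. Its groups did not overlap, with siEZH1 below siUXT and siUXT below NC. The log2 change of siEZH1 was -0.65 under TNF and -0.79 under PBS, and the limma estimate was -0.72 (SE 0.15, adjusted p = 0.602; 0.00646 without siUXT PBS). RPLP0 differed less, at 2878 and 2635 FPKM in siEZH1, 2763 and 3399 in siUXT, and 2947 and 2709 in NC, with siEZH1 changes of -0.03 and -0.04. A ratio between genes of the same library is not moved by scaling that library. RPLP1 over RPLP0 was 0.699 and 0.621 in siEZH1 with TNF and PBS, 0.885 and 0.870 in siUXT, and 1.14 and 1.07 in NC. RPLP2 over RPLP0 was 0.400 and 0.353 in siEZH1, 0.442 and 0.404 in siUXT, and 0.611 and 0.593 in NC. In both ratios the knockdown libraries, siUXT included, lay below both NC libraries.

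RPS28, a small subunit protein at the mRNA exit channel, had 1177 and 958 FPKM in siEZH1 with TNF and PBS, 1248 and 1574 FPKM in siUXT, and 1715 and 1471 FPKM in NC. The siEZH1 libraries were below the NC libraries, with log2 changes of -0.54 and -0.62 (limma -0.58, SE 0.18, adjusted p = 0.602). RPS26, its neighbour at the exit channel, had the opposite sign, with 538 and 522 FPKM in siEZH1, 563 and 677 in siUXT and 461 and 417 in NC. The ratio of RPS28 to RPS26 was 2.19 and 1.84 in siEZH1 with TNF and PBS, 2.22 and 2.32 in siUXT, and 3.72 and 3.53 in NC. Among the next lowest changes of siEZH1 were those of RPL36 (-0.43 and -0.30) and RPS15 (-0.49 and -0.23), under TNF and PBS in that order.

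**Figure D2:**
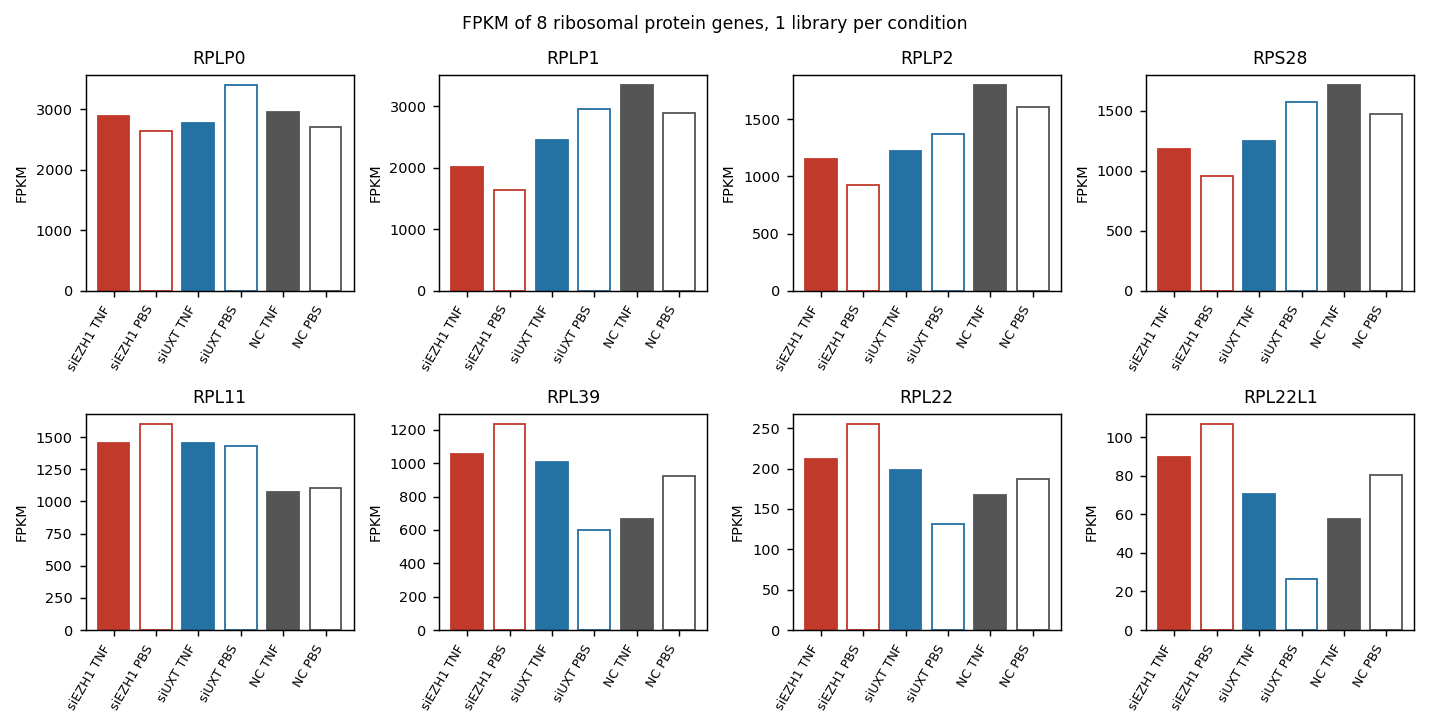
FPKM of 8 ribosomal protein genes in the 6 libraries, with 1 bar per library (filled for TNF, open for PBS; red siEZH1, blue siUXT, grey NC). RPLP1 and RPLP2 are lowest in the siEZH1 libraries (1636 and 929 FPKM with PBS), RPLP0 differs less (2635 to 3399 FPKM), and RPL22L1 is lowest in siUXT PBS at 26.3 FPKM.

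Both ribosomal proteins of the 5S particle, which carries 5S ribosomal RNA into the large subunit and, when unassembled, binds the p53 regulator MDM2, were higher in siEZH1. RPL11 had 1452 and 1601 FPKM in siEZH1 with TNF and PBS, 1453 and 1430 in siUXT, and 1073 and 1107 in NC. All 4 knockdown libraries were above both NC libraries. Its log2 change in siEZH1 was 0.44 under TNF and 0.53 under PBS (limma 0.48, SE 0.12, adjusted p = 0.602; 0.00911 without siUXT PBS). RPL5 had 860 and 962 FPKM in siEZH1, 758 and 681 in siUXT, and 719 and 759 in NC, with siEZH1 changes of 0.26 and 0.34.

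RPL39, RPL17 and RPL4 line the tunnel through which the new peptide leaves. RPL39 had 1052 and 1234 FPKM in siEZH1 with TNF and PBS, 1008 and 601 in siUXT, and 668 and 921 in NC. Its siEZH1 libraries were above both NC libraries, with changes of 0.65 and 0.42. RPL17 had siEZH1 changes of 0.48 and 0.37, and RPL4 of 0.24 and 0.15. RPL7, a large subunit protein, had 1699 and 1791 FPKM in siEZH1, 1368 and 1033 in siUXT, and 1080 and 1329 in NC, and the highest mean change of all members (limma 0.54, SE 0.18, adjusted p = 0.602). RPS3A and RPL21, of the small and large subunit, came after RPL39, RPL22L1 and RPL11 in that order, with 0.62 and 0.34, and 0.59 and 0.33. Without NC TNF the siEZH1 estimates of RPL7, RPL39, RPL22L1, RPS3A and RPL21 were 0.31, 0.18, -0.00049, 0.23 and 0.02. In that fit the TNF change comes from the siEZH1 and siUXT pairs alone, so both siUXT libraries enter these estimates. The single pair siEZH1 PBS against NC PBS had 0.43, 0.42, 0.41, 0.34 and 0.33 in the same order. RPL3 and RPL10, both close to the peptidyl transferase centre, had changes of 0.04 and 0.15 and of 0.01 and 0.27. RPSA, known also as a laminin receptor, had 0.03 and 0.08, and RPL41 0.01 and 0.16.

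The 78 changes of siEZH1 against NC under TNF and those under PBS come from 4 different libraries. They had a Pearson r of 0.879 over the 78 genes, with the same sign in 72. Over 11845 loci r was 0.486, with the same sign in 9295. The changes of siEZH1 under PBS and of siUXT under TNF, also from 4 different libraries, had r = 0.823 over the 78 genes and 0.393 over all loci. Against siUXT under PBS, the siEZH1 changes under TNF had r = -0.281 over the 78 genes and -0.316 over all loci. These values describe the libraries and are given without a p, because genes of 1 library share its depth and base composition. Across the 64 genes with a promoter entry, the GC content of the 300-base window had a Spearman correlation of -0.479 with the siEZH1 change under TNF and -0.411 under PBS. Over 9058 protein-coding loci these were -0.164 and -0.168. With the siUXT change the 64 genes had -0.396 under TNF and -0.087 under PBS. With the TNF change they had 0.272 in siEZH1, -0.061 in siUXT and 0.390 in NC. Mean FPKM had -0.329 and -0.350 with the siEZH1 changes over the 78 genes under TNF and PBS. Over 11008 protein-coding loci it had -0.088 and -0.071. The 46 genes with an annotated pyrimidine start had a median siEZH1 change of 0.15 under TNF and 0.12 under PBS, and the 18 without it 0.23 and 0.14.

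**Figure D3:**
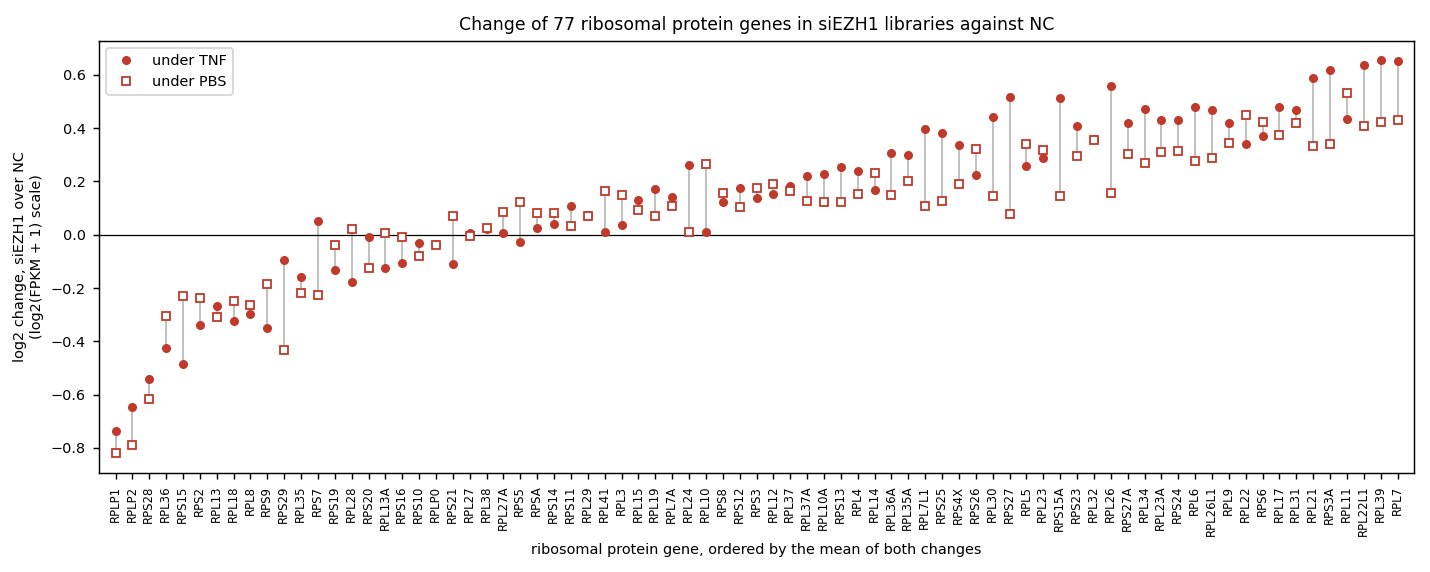
Log2 change of siEZH1 against NC, on the log2(FPKM + 1) scale, under TNF (filled circles) and PBS (open squares) for 77 of the 78 ribosomal protein genes ordered by the mean of both. The changes of 72 of the 78 genes have the same sign under both treatments, as do those of 9295 of 11845 loci. The genes run from RPLP1 at -0.74 and -0.82 to RPL7 at 0.65 and 0.43.

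The siUXT comparison asked the same of UXT. The siUXT values of several members differed between TNF and PBS, a difference that was not tested. Under TNF the pattern was near that of siEZH1, with RPLP2 (-0.56), RPS28 (-0.46) and RPLP1 (-0.45) lowest and RPL39 (0.59) and RPL21 (0.59) highest, whereas under PBS RPL22L1 (-1.57), RPL21 (-0.91) and RPL39 (-0.61) were lowest. Limma called 0 of 78 members over the 6 libraries, with 5 loci called in all (0.0422%). At an unadjusted p under 0.05 it had 6 members (7.69%), RPL11, RPL12, RPL23A, RPS26 and RPS6 with positive and RPLP2 with negative estimates, and 432 loci (3.65%). With eBayes without trend, limma had 2 members (2.56%) and 404 loci (3.41%) at this p, so the excess of members depended on the moderation. The lowest adjusted p of a member was 0.908 with trend. The changes under TNF and PBS had r = -0.173 over the 78 genes and -0.121 over all loci.

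By size, 5 members were at least 1.2-fold higher in siUXT under both treatments: RPL11, RPL12, RPL23A, RPS26 and RPS6 (6.41%, against 4.42% of loci). None was at least 1.2-fold lower under both (2.68% of loci were). Under TNF alone 22 members were higher by this fold (28.2%, against 19.4% of loci) and 11 lower (14.1%, against 18.2%). Under PBS alone 21 were higher (26.9%, against 28.0%) and 9 lower (11.5%, against 29.4%). Without siUXT TNF, where siUXT PBS stands alone and is assumed to vary like the other groups, limma called 16 members higher (20.5%, against 12.0% of loci) and 6 lower (7.69%, against 18.4%). Without siUXT PBS it called 1 lower (1.28%, against 0.650% of loci), RPLP2, which fell by 0.59 on the log2 scale (adjusted p = 0.0493).

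RPS26 had 563 and 677 FPKM in siUXT with TNF and PBS, against 461 and 417 FPKM in NC. RPL12, at the base of the stalk, had 2539 and 2970 FPKM in siUXT, against 1984 and 1955 FPKM in NC. RPL23A, next to the end of the peptide tunnel, had 586 and 702 FPKM in siUXT, against 467 and 504 FPKM in NC. These 3 genes were picked from the same values for their rise under both treatments. That both siUXT libraries lay above both NC libraries in each largely follows from this choice. RPS6, the substrate of S6 kinase, had 1719 and 1900 FPKM in siUXT, against 1340 and 1512 FPKM in NC. Its siEZH1 levels of 1733 and 2030 FPKM were also above both NC libraries. The limma estimates for siUXT were 0.49 (SE 0.15) for RPS26, 0.48 (SE 0.12) for RPL12, 0.40 (SE 0.14) for RPL23A and 0.34 (SE 0.11) for RPS6, each with an adjusted p of 0.908.

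**Figure D4:**
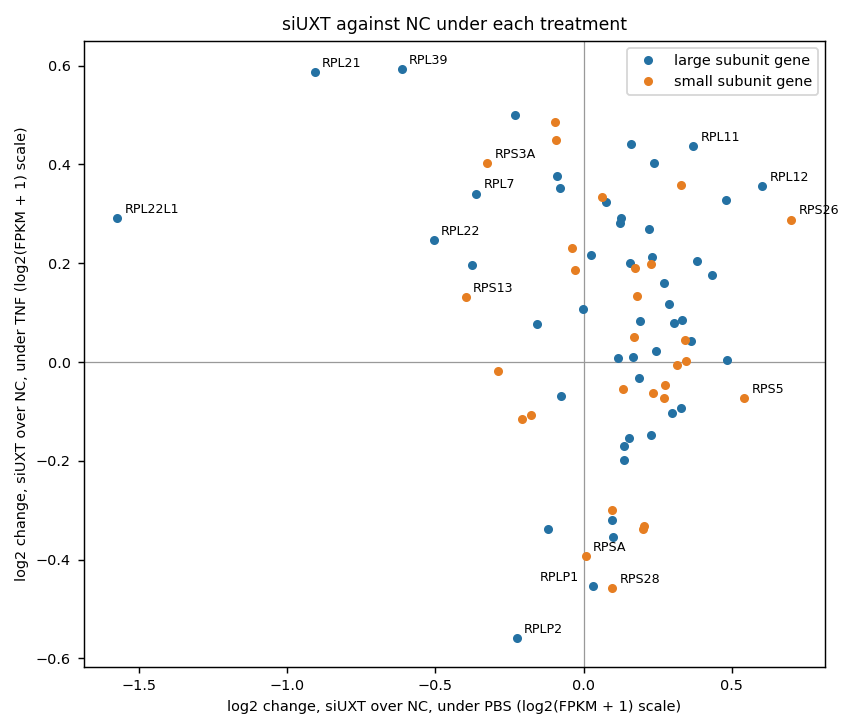
Log2 change of siUXT against NC under PBS (horizontal) and under TNF (vertical), on the log2(FPKM + 1) scale, for 77 of the 78 ribosomal protein genes coloured by subunit. RPL22L1, RPL21 and RPL39 lie at the left, lower under PBS (-1.57, -0.91 and -0.61) and higher under TNF (0.29, 0.59 and 0.59).

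RPL22L1 is the paralog of RPL22, and the pair are known from mouse cells to be expressed in opposition, RPL22 holding down RPL22L1. RPL22L1 had 89.7 and 107 FPKM in siEZH1 with TNF and PBS, 70.4 and 26.3 FPKM in siUXT with TNF and PBS, and 57.4 and 80.2 FPKM in NC with TNF and PBS. The siUXT PBS library was below all others. RPL22 was lowest in the same library: it had 212 and 255 FPKM in siEZH1, 198 and 131 in siUXT, and 167 and 187 in NC. The ratio of RPL22L1 to RPL22 was 0.424 and 0.419 in siEZH1, 0.355 and 0.200 in siUXT, and 0.344 and 0.430 in NC. Both genes were highest in siEZH1 PBS and lowest in siUXT PBS. RPL21 had 1035 and 1192 FPKM in siEZH1 with TNF and PBS, 1034 and 505 in siUXT, and 688 and 947 in NC. As for RPL39 above, its lowest level was in siUXT PBS. EPCAM was lowest in the same library, and the part of a difference of that library as a whole in these results was not tested.

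The TNF comparison asked how the mRNAs differed between TNF and PBS. No ribosomal protein gene was called: limma had 0 of 78 members, with 49 loci called in all (0.414%). It also had 0 members at an unadjusted p under 0.05 (469 loci), and the lowest adjusted p of a member was 0.999. No member was at least 1.2-fold higher with TNF in all 3 transfections (2.17% of loci were), and none at least 1.2-fold lower in all 3 (0.701% of loci were). Higher in all 3 by any amount were 0 members (9.08% of loci), and lower in all 3 were 10 (12.8%, against 11.1% of loci). The median log2 change of TNF against PBS was 0.02 in siEZH1, -0.13 in siUXT and -0.03 in NC.

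Among those lower with TNF in every transfection, RPS6 had 1733 FPKM with TNF and 2030 with PBS in siEZH1, 1719 and 1900 in siUXT, and 1340 and 1512 in NC. Its limma estimate was -0.18 (SE 0.09, adjusted p = 0.999). RPL6, a large subunit protein, had TNF changes of -0.12, -0.07 and -0.32 in siEZH1, siUXT and NC. RPS4X, the X-linked small subunit gene, had -0.02, -0.21 and -0.16, RPL32 -0.08, -0.26 and -0.08, RPL23 -0.13, -0.06 and -0.10, and RPL36A -0.10, -0.09 and -0.26. The largest single changes were in siUXT, where RPL22L1 was higher with TNF by 1.39, RPL21 by 1.03 and RPL39 by 0.74. In siEZH1 the same genes had -0.25, -0.20 and -0.23, and in NC -0.48, -0.46 and -0.46. TNF changes in siEZH1 and in NC, from 4 different libraries, had r = 0.646 over the 78 genes and 0.446 over all loci. TNF changes in siUXT and NC had r = -0.688 over the 78 genes and -0.022 over all loci.

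Ribosomal protein genes fused to ubiquitin or named outside the rule were also followed. RPS27A, a fusion of ubiquitin with a small subunit protein, had siEZH1 changes of 0.42 under TNF and 0.30 under PBS and siUXT changes of 0.45 and -0.09. FAU, a ubiquitin-like fusion with a small subunit protein, had 515 and 489 FPKM in siEZH1 with TNF and PBS, 625 and 655 in siUXT and 675 and 606 in NC. Its siEZH1 changes were -0.39 and -0.31. RPL36AL, the paralog of RPL36A, had 0.35 and 0.36 in siEZH1 and 0.77 and 0.46 in siUXT.

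Of the paralogs within the rule, RPL26L1 had siEZH1 changes of 0.47 and 0.29 under TNF and PBS and siUXT changes of 0.44 and 0.16, and RPL7L1 0.40 and 0.11, and 0.27 and 0.22. Of 10 genes of Diamond-Blackfan anaemia (RPS19, RPS24, RPS7, RPS10, RPS26, RPL5, RPL11, RPL35A, RPL26 and RPL15), 8 were above 0 in siEZH1 under TNF and 7 under PBS, with medians of 0.24 and 0.18. These counts are near the shares of all 78 members above 0, 71.8% under TNF and 74.4% under PBS. Over all loci the shares were 52.3% and 50.5%. RPS19, the gene most often mutated in that disease, had -0.13 and -0.04, and RPS24 0.43 and 0.32. The counts and medians hold for this list of 10, which was not checked to be complete.

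Other genes of the translation machinery gave 0 calls by limma in siEZH1 and in siUXT over the 6 libraries. Translation factors (42 tested) had medians of 0.21 and 0.20 in siEZH1 under TNF and PBS and 0.18 and 0.06 in siUXT, with 29 of 42 higher in siEZH1 under both treatments. EEF1A1, the factor that brings aminoacyl-tRNA, had 4909 and 6102 FPKM in siEZH1, 4262 and 3599 in siUXT and 3624 and 3791 in NC. TPT1, a translationally controlled protein whose mRNA has the same kind of pyrimidine start, had -0.43 and -0.92 in siEZH1 and -0.37 and -1.11 in siUXT. Ribosome biogenesis factors (66) had medians of 0.10 and 0.08 in siEZH1 and 0.13 and 0.06 in siUXT, and RNA polymerase I and its factors (14) 0.15 and 0.10, and 0.02 and -0.14. Mitochondrial ribosomal protein genes (74) had 0.00 and -0.04 in siEZH1 and 0.02 and 0.04 in siUXT. The 638 other loci over 100 FPKM had -0.02 and -0.00 in siEZH1, and 0.03 and 0.17 in siUXT. In siUXT under PBS the median of ribosomal protein genes was 0.15, near that of the other abundant loci.

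**Figure D5:**
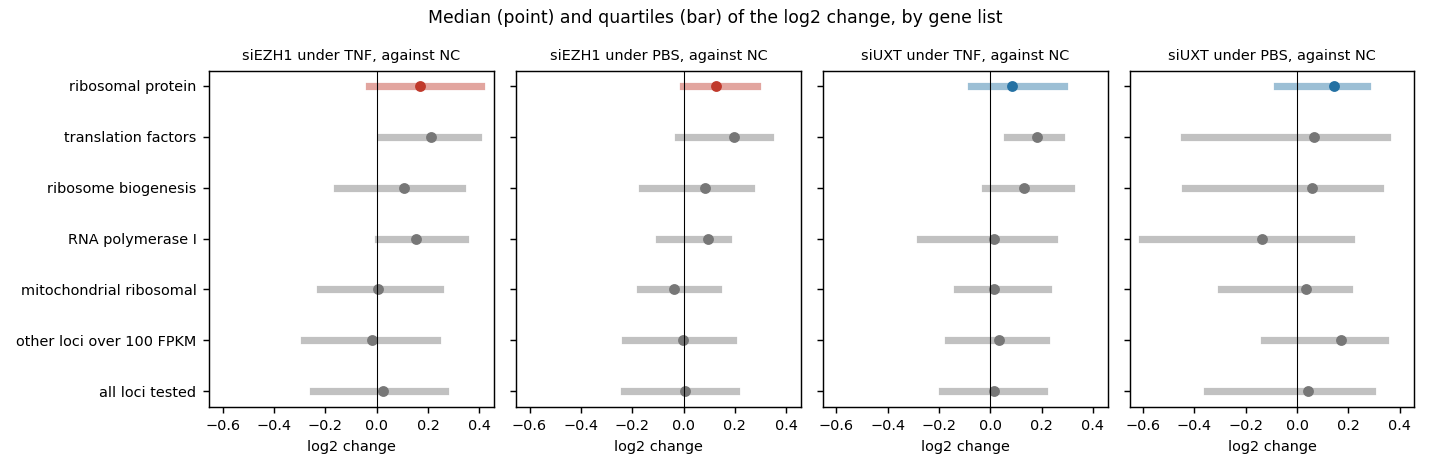
Median (point) and quartiles (bar) of the log2 change against NC in siEZH1 under TNF and PBS and in siUXT under TNF and PBS, for 7 sets of genes. The ribosomal protein median is 0.17 and 0.12 in siEZH1, against 0.02 and 0.00 over all loci tested, and in siUXT under PBS it is 0.15, near the 0.17 of other loci over 100 FPKM.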

How the data were processed

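The 6 RNA-seq tables deposited by the authors list FPKM by gene symbol. FastQC, cutadapt, TopHat2, Bowtie and SICER and the build hg19 are named in the submitters' processing notes. Their versions, the counting program and the annotation are not stated there. The depth behind an FPKM is unknown, and relative depth was read from the steps of low values.

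Symbols that agreed exactly in all 6 libraries were merged into 1 locus. Of 17642 loci above 0, the 11845 whose mean reached 1 FPKM were tested as log2(FPKM + 1). limma 3.58.1 in R 4.3.3 (lmFit, eBayes with trend) fitted transfection and treatment with 2 residual degrees of freedom, prior degrees of freedom of 4.42, Benjamini-Hochberg adjustment and a threshold of 0.05. The fit was tested on simulated data. Other steps used matplotlib 3.10.9, numpy 2.4.6, pandas 2.3.3 and scipy 1.17.1 in Python 3.11.15. Where a gene has several annotated starts, the longest pyrimidine run was used. The labels do not say whether PBS and TNF libraries came from separate transfections, so p-values measure only the spread between these libraries.

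The genes and lists were chosen with earlier results of these data known. The roles of members, the fold of 1.2 and the ratios to RPLP0 were added after the values were seen. The rule for named genes gave RPLP0, RPLP1, RPLP2, RPSA, RPL22, RPL22L1, RPL39, RPL3, RPL10, RPL41, RPS6, RPS27A, RPS4X, the paralogs, UXT and EZH1. It added the 6 members with the largest rise and the 6 with the largest fall per comparison of those with 1 sign in every pair, the 5 highest and 5 lowest by mean, and up to 4 genes per other list. Some genes that the rule gave are not reported here. Others were named after their values were seen. Where a gene was named for its change, the separation of its libraries from NC follows in part from that choice. Alternatives changed the pseudocount, the filter, the scaling, the moderation, the merging and the libraries.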

Additional observations from a re-analysis of the deposited data

Results flagged for a closer look

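For 5 genes the change of siUXT against NC had opposite signs under TNF and PBS, each at least 1.2-fold, and the difference between them was not tested because each pair has 1 library a side. The change under TNF minus that under PBS, on the log2 scale, was 1.86 for RPL22L1, 1.49 for RPL21, 1.21 for RPL39, 0.73 for RPS3A and 0.70 for RPL7. All 5 were higher under TNF and lower under PBS. How many of all loci met the same rule was not counted. Changes of siUXT under TNF and PBS had the same sign in 40 of 78 members and in 4738 of 11845 loci. Opposite signs were therefore not particular to ribosomal protein genes.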

How the results depend on the processing

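The 0 calls among ribosomal protein genes for siEZH1 were also 0 with a pseudocount of 0.1, no filter, a mean of at least 5 FPKM, size factors, eBayes without trend and no merging. They became 37 without the siUXT pair and lay between 0 and 39 when 1 library was left out, with 39 without siUXT TNF, 37 without siUXT PBS and 1 without NC PBS. The 2 loci called for siEZH1 were 1 at a mean of at least 5 FPKM and 3101 without the siUXT pair, and lay between 42 and 3132 with 1 library left out; fewer libraries leave 1 residual degree of freedom. The member median of 0.15 for siEZH1 lay between 0.10 and 0.19 with 1 library left out. The siEZH1 estimate of RPL22L1 (0.52) was -0.00049 without NC TNF and 1.04 without NC PBS, the lowest and highest values with 1 library left out. Without NC TNF and NC PBS in turn, that of RPL21 (0.46) was 0.02 and 0.90, of RPL39 (0.54) 0.18 and 0.90, of RPS3A (0.48) 0.23 and 0.73, of RPL7 (0.54) 0.31 and 0.77, of RPL36 (-0.37) -0.22 and -0.51, and of RPS15 (-0.36) -0.16 and -0.56. With either NC library left out, the TNF change in the fit comes from the siEZH1 and siUXT pairs alone. For RPL22L1 that change was -0.25 in siEZH1 and 1.39 in siUXT. Its single siEZH1 pairs against NC had 0.64 under TNF and 0.41 under PBS. For siUXT, the 5 loci called were 0 with a pseudocount of 0.1, 1 at a mean of at least 5 FPKM and 65 without the siEZH1 pair, and 46 to 3604 with 1 library left out; members called lay between 0 and 22, the highest without siUXT TNF. For TNF, the 49 loci were 23 with no filter, 130 without the siEZH1 pair, 323 without the siUXT pair, 131 without the NC pair and 126 to 328 with 1 library left out. Apart from how the fit uses the TNF changes, the cause of these differences was not tested. Of the values for single genes, 362 kept their direction and their side of the threshold, 43 newly passed it and 1 reversed. These counts leave out some siUXT estimates that reversed without siUXT PBS. That of RPL22L1 (-0.64) became 0.23, of RPL21 (-0.16) 0.52, of RPL22 (-0.13) 0.27 and of RPLP0 (0.12) -0.09. Other siUXT estimates kept their sign without siUXT PBS, such as RPL11 (0.40, then 0.46) and RPS26 (0.49, then 0.31). Depth is unknown, so the precision of low genes such as RPL22L1 cannot be given. TNF and PBS were compared within each transfection label, with 1 library per condition. No pairing beyond that label was possible, because the labels carry no replicate numbers.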

Other observations

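In siUXT PBS, several genes of the translation machinery outside the ribosome lay further from NC PBS than any ribosomal protein gene but RPL22L1. The initiation factor genes EIF1AX (-2.21), EIF3J (-1.97), EIF3E (-1.45) and EIF4E (-1.42), and NAP1L1 (-1.56), a histone chaperone gene whose mRNA also starts with a pyrimidine tract, were lower on the log2 scale. Under TNF the same genes had siUXT changes of 0.19, 0.17, 0.23, 0.02 and 0.51. Among mitochondrial ribosomal protein genes, MRPL42 (-1.62), MRPS10 (-1.20) and MRPL19 (-1.10) were lower in siUXT PBS, with 0.33, 0.07 and -0.10 in siUXT TNF. In siEZH1 the mitochondrial genes furthest from NC were MRPL36 (-0.66 under TNF and -0.82 under PBS) and MRPL41 (-0.55 and -0.88). None of these was called by limma over the 6 libraries, and the genes shown were those with the largest changes of their lists.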
